A study of Homo sapiens with 4 samples.

Results

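The genes described here are 10 feedback genes of the extracellular signal-regulated kinase (ERK) pathway, namely DUSP4, DUSP5, DUSP6, SPRY2, SPRY4, SPRED1, SPRED2, ETV4, ETV5 and PHLDA1. They were chosen by gene name, and every probe carrying one of these names on an Agilent oligo-microarray was taken, which gave 17 of 41000 probes and 10 of 30982 gene names. Each of the 17 probes had 1 spot per array. DUSP4, DUSP5, DUSP6, SPRY2 and SPRY4 had 1 probe each, SPRED1, SPRED2, ETV4 and ETV5 had 2, and PHLDA1 had 4. FaDu cells, an established line from a hypopharyngeal squamous cell carcinoma, and HSC3 cells, an established line from a squamous cell carcinoma of the tongue, were transfected with miR-489, with miR-504 or with a control miRNA and harvested 72 h later. Each of the 4 arrays carried Cy5-labelled RNA of 1 miRNA transfectant together with Cy3-labelled RNA of a control transfectant of the same line. There was 1 array for each combination of line and miRNA, with no repeated transfection and no dye swap. Each condition is therefore 1 transfection of 1 cultured line with an excess of a synthetic miRNA, and the precision of every value is limited by the number of arrays. The sources used here do not state whether the arrays of a line shared 1 control RNA. The study sought genes lowered by miR-489 and followed PTPN11, a phosphatase that promotes signalling from growth factor receptors through RAS to ERK.

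Active ERK switches on genes whose products turn the pathway down again, so that their mRNA levels are widely read as an output of the pathway. DUSP4, DUSP5 and DUSP6 are phosphatases that remove the activating phosphates from ERK, the first and the second in the nucleus and DUSP6 in the cytoplasm. The Sprouty proteins SPRY2 and SPRY4 and the related SPRED1 and SPRED2 act upstream, between receptor and RAF; SPRED proteins bring the RAS inhibitor neurofibromin to the membrane. ETV4 and ETV5 are ETS-family transcription factors made in response to ERK, and PHLDA1 is a pleckstrin-homology-domain protein induced by ERK and other signals. The epidermal growth factor receptor feeds this pathway in squamous carcinomas of the head and neck.

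The miRNAs that were introduced are shown because the comparison between them is the one on which the values below turn. Their mature sequences were taken from RefSeq annotation of GRCh38.p14, where MIR489 lies on the minus strand at chr7:93483947-93483968 and the 5′ arm of MIR504 on the minus strand at chrX:138667760-138667781. Capitals mark the seed, bases 2 to 8 from the 5′ end. The labels give no arm, and the 3p arm of miR-489 and the 5p arm of miR-504 are shown.
hsa-miR-489-3p: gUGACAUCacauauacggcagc
hsa-miR-504-5p: aGACCCUGgucugcacucuauc
The seeds UGACAUC and GACCCUG were not the same, so these arms belong to different seed families.

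Values are log2 ratios of the Cy5 over the Cy3 intensity of a spot, with the local background subtracted and the median of the measured probes of each array set to 0. A signal was taken as measured where the scanner software marked it as well above background, and a gene is represented by its brightest probe. By these marks 14 of the 17 probes, of 9 genes, were measured in both channels on all 4 arrays, with Cy3 intensities from 32.5 to 7559. The exceptions were both ETV5 probes, each with Cy3 not well above background on 1 FaDu array, and 1 SPRED2 probe (A_24_P315535), which was not well above background in either channel on any array. Over the whole arrays, 58.2% to 59.2% of Cy3 and 61.2% to 62.6% of Cy5 signals were well above background and 0 spots were saturated. Replicate spots of other probes had a standard deviation of 0.06 to 0.07 on the log2 scale where Cy3 was 100 or above and 0.19 to 0.24 where it was lower, which covers spotting and reading only. Of the squamous epithelial markers, 8 of the 8 on the array were well above background in every control transfectant. Of 6 fibroblast, 5 leukocyte and 3 endothelial markers, 0 to 2, 1 to 2 and 0 to 1 were. In the brightest PTPN11 probe the log2 ratio was −3.25 after miR-489 and −1.29 after miR-504 in FaDu cells, and −3.22 and −1.04 in HSC3 cells. The difference over both lines was −2.07 ± 0.13 (SE), with an adjusted p of 0.0305 in limma. The second-brightest of the 4 PTPN11 probes (A_23_P99027, 10 spots) gave −1.07 and 0.35 in FaDu cells and −1.38 and 0.29 in HSC3 cells, and its difference was −1.54 ± 0.14 (limma adjusted p 0.0345). The sign of the miR-504 value against the control thus depended on the probe, whereas the difference between the miRNAs was negative in both lines for either probe. Of the dim probes, with Cy3 at or below 128.5, A_23_P105436 had differences of −1.72 (Cy5 not well above background on the FaDu miR-489 array) and −0.30, and A_23_P204090 of −0.78 in FaDu and 0.19 in HSC3 cells, and neither was called in limma. After miR-504 both dim probes were below 0, like the brightest. A_23_P105436 was at −1.07 in FaDu and −1.36 in HSC3 cells, and A_23_P204090 at −1.05 and −1.41.

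In FaDu cells, DUSP4, DUSP6 and SPRY4 were at least 2-fold higher after miR-489 than after miR-504, and in HSC3 cells none of the 10 genes was. By Cy5 alone, without the control channel, DUSP6 (0.74, 1.67-fold) and SPRY4 (0.79, 1.73-fold) did not reach 2-fold, and SPRY4 was also below it with other background corrections (0.88 to 0.90). The 3 genes were among 9 measured in FaDu cells, whereas 0.977% of all 16692 measured genes were as much higher. The median difference of the 9 genes was 0.45 on the log2 scale, against 0.010 for all genes. Of the 9 genes, 8 lay above 0, against 51.6% of all genes. DUSP5, at −0.045, did not, and was above 0 with the deposited ratios. PHLDA1 and SPRED2 were among the 8 but lay below 0 by Cy5 alone, at −0.62 and −0.014. In the control channel alone the median of the same 9 genes was −0.39 on the miR-489 array relative to the miR-504 array, against 0.017 for all genes, and in Cy5 alone the median was 0.15 over 10 genes, against 0.052. In HSC3 cells the median difference was 0.16 over 10 genes, against 0.016 for all genes. There 0 of 10 were at least 2-fold higher, with 0.607% of all genes, and 7 of 10 lay above 0, with 52.6% of all genes. Of those above 0, SPRED1, SPRED2 and ETV5 kept their sign under every alternative, and DUSP4, DUSP6, SPRY4 and ETV4 did not. By Cy5 alone, DUSP6 was at −0.35, SPRY4 at −0.078 and ETV4 at −0.50. No gene of the 10 was at least 2-fold lower in either line (0 and 0), where 2.3% of all genes in FaDu and 1.65% in HSC3 cells were. These counts have no test, since each line had 1 array per miRNA. In RNA of whole cultures, a change in the make-up of the cells cannot be told apart from a change of RNA per cell.

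**Figure D1:**
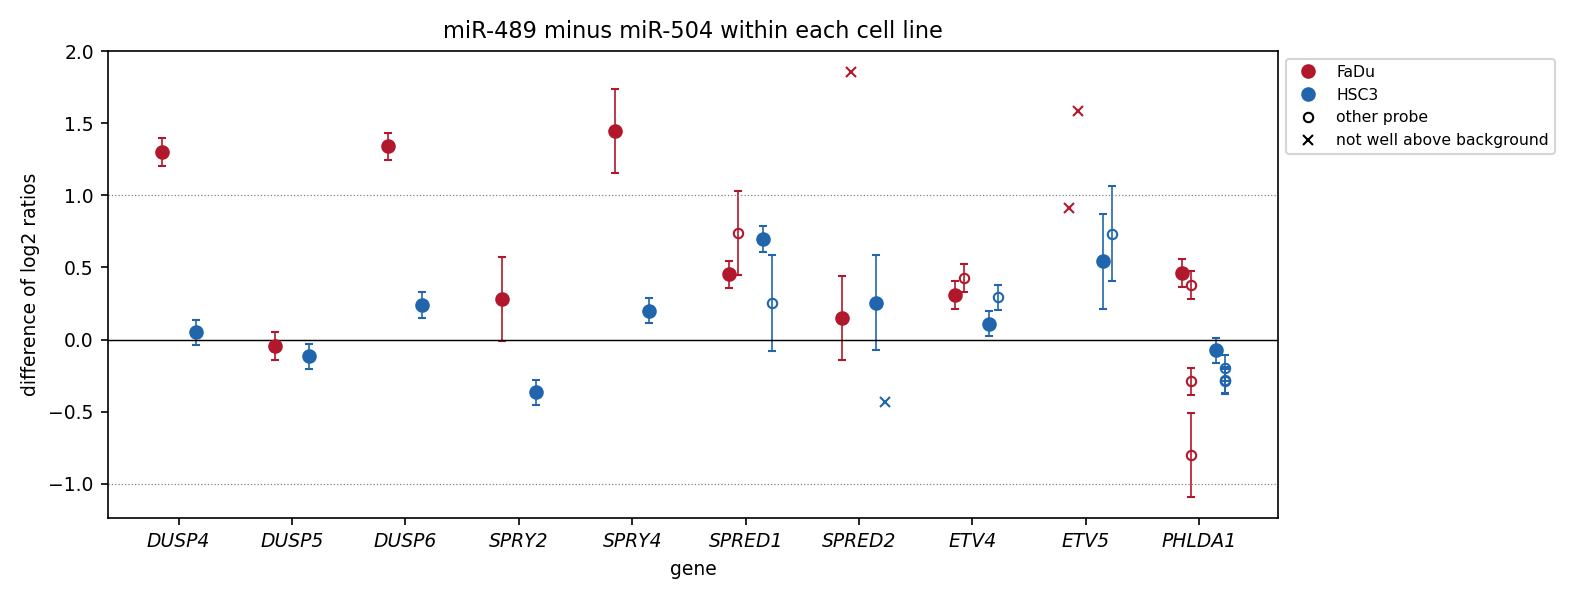
Difference of the log2 ratios between the miR-489 and the miR-504 array of each line (vertical axis, log2), for the 10 genes (horizontal axis). Filled circles are the brightest probe of a gene, open circles its other probes and crosses values with a signal not well above background; bars are the standard deviation of such a difference from replicate spots of other probes of like intensity, and dotted lines mark 2-fold. DUSP4 (1.30), DUSP6 (1.34) and SPRY4 (1.45) lie above the upper 2-fold line in FaDu cells and at 0.050, 0.24 and 0.20 in HSC3 cells.

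Among the phosphatases, DUSP4 had intensities of 1480 in Cy5 and 473 in Cy3 on the FaDu miR-489 array and of 478 and 358.5 on the FaDu miR-504 array. The log2 ratios were 1.06 and −0.24 in FaDu cells and 0.48 and 0.43 in HSC3 cells, for miR-489 and miR-504 respectively. The FaDu miR-504 value was thus the only one of the 4 below 0. The difference between the miRNAs was 1.30 in FaDu cells, corresponding to 2.46-fold, and 0.050 in HSC3 cells, the latter within the spot SD of 0.09.

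DUSP6, the cytoplasmic phosphatase, was bright on every array, with Cy3 intensities from 1315.5 to 7559. Its log2 ratios were 0.39 after miR-489 and −0.95 after miR-504 in FaDu cells, and −0.34 and −0.58 in HSC3 cells. It was above 0 on the FaDu miR-489 array alone. The difference was 1.34 (2.53-fold) in FaDu and 0.24 (1.18-fold) in HSC3 cells. DUSP5, in contrast, had log2 ratios of 0.75 after miR-489 and 0.80 after miR-504 in FaDu cells and of 0.53 and 0.64 in HSC3 cells. It was higher than in the control on all 4 arrays by a like amount, and the differences between the miRNAs were −0.045 and −0.12. Because the dyes were not swapped, a dye effect of the DUSP5 probe and a rise after either miRNA cannot be told apart.

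Among the inhibitors upstream of ERK, SPRY4 had the largest difference of the 9 genes in FaDu cells. Its intensities were 171 in Cy5 and 45 in Cy3 on the FaDu miR-489 array and 104 and 71 on the FaDu miR-504 array. The log2 ratios were 1.34 and −0.10 in FaDu cells and 0.62 and 0.42 in HSC3 cells, so that only the FaDu miR-504 value was not above 0 (−0.27 to 0.16 under the alternatives). The difference was 1.45 (2.72-fold) in FaDu cells, against a spot SD of 0.29 at this low intensity, and 0.20 in HSC3 cells. It was below 2-fold, at 0.88 to 0.90, with a normexp background correction, with normexp followed by loess and without background subtraction.

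SPRY2 was at 0.22 after miR-489 and −0.066 after miR-504 in FaDu cells, and at 0.39 and 0.75 in HSC3 cells. Its difference of 0.28 in FaDu cells was within the spot SD of 0.29, and that of −0.37 in HSC3 cells was of the opposite sign. For SPRED1 the brighter probe (A_24_P107859) gave 0.32 and −0.13 in FaDu and 0.23 and −0.47 in HSC3 cells. SPRED1 was thus above 0 after miR-489 and below 0 after miR-504 in both lines, with differences of 0.45 and 0.70, and the dimmer probe (A_23_P54460) gave 0.74 and 0.25. By Cy5 alone the brighter probe differed by 0.086 in FaDu and 0.41 in HSC3 cells, with Cy3 at −0.39 and −0.25. The dimmer probe differed by 0.44 and 0.026 in Cy5. Among the brightest probes, the difference of 0.70 (1.62-fold) was the only one past 1.5-fold in HSC3 cells. For SPRED2 the measured probe gave 0.38 after miR-489 and 0.24 after miR-504 in FaDu cells and 0.74 and 0.48 in HSC3 cells, and its differences of 0.15 and 0.26 lay within the spot SD of 0.29 and 0.33.

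Of the transcription factors, ETV4 was above 0 on all 4 arrays by its brighter probe (A_23_P431776), at 0.55 after miR-489 and 0.24 after miR-504 in FaDu cells and at 0.45 and 0.34 in HSC3 cells. The other probe (A_24_P416346) gave 0.26 and −0.17 in FaDu and 0.65 and 0.35 in HSC3 cells. Differences were 0.31 and 0.43 in FaDu and 0.11 and 0.29 in HSC3 cells, all in the same direction. By Cy5 alone they were 0.13 and 0.026 in FaDu cells. In HSC3 cells they were −0.50 and −0.34 by Cy5 alone, of the opposite sign, with Cy3 at −0.57 and −0.59. ETV5 was close to background. The brighter ETV5 probe (A_23_P9836) had Cy5 intensities of 99 after miR-489 and 45.5 after miR-504 in FaDu cells and of 83 and 69 in HSC3 cells, with Cy3 intensities between 33 and 50. In HSC3 cells its log2 ratios were 0.56 and 0.018, a difference of 0.54. The second probe (A_32_P30649) gave 0.43 and −0.30 there, a difference of 0.73 (1.66-fold), beside a spot SD of 0.33. In FaDu cells the Cy3 signal behind 1 of the values was not well above background for either probe, and the differences of 0.91 and 1.59 were not counted.

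The ratios of the 4 PHLDA1 probes did not give 1 direction. The brightest (A_23_P76450) gave 0.40 after miR-489 and −0.064 after miR-504 in FaDu cells, and −0.098 and −0.024 in HSC3 cells. The differences in FaDu cells were 0.46 for this probe, 0.38 for A_23_P338912, −0.29 for A_24_P915692 and −0.80 for A_24_P943597, a range wider than the spot SD of 0.10 to 0.29. In HSC3 cells all 4 lay below 0, between −0.29 and −0.074. The direction of the ratio given for PHLDA1 in FaDu cells thus depends on the probe. By Cy5 alone all 4 were lower after miR-489 in FaDu cells, at −0.62, −0.43, −1.07 and −1.38 in the same order. Cy3 there was at −1.11, −0.83, −0.80 and −0.60. In HSC3 cells Cy5 differed by 0.52, 0.32, −0.76 and 0.013. Which transcripts each probe detects was not analysed here.

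**Figure D2:**
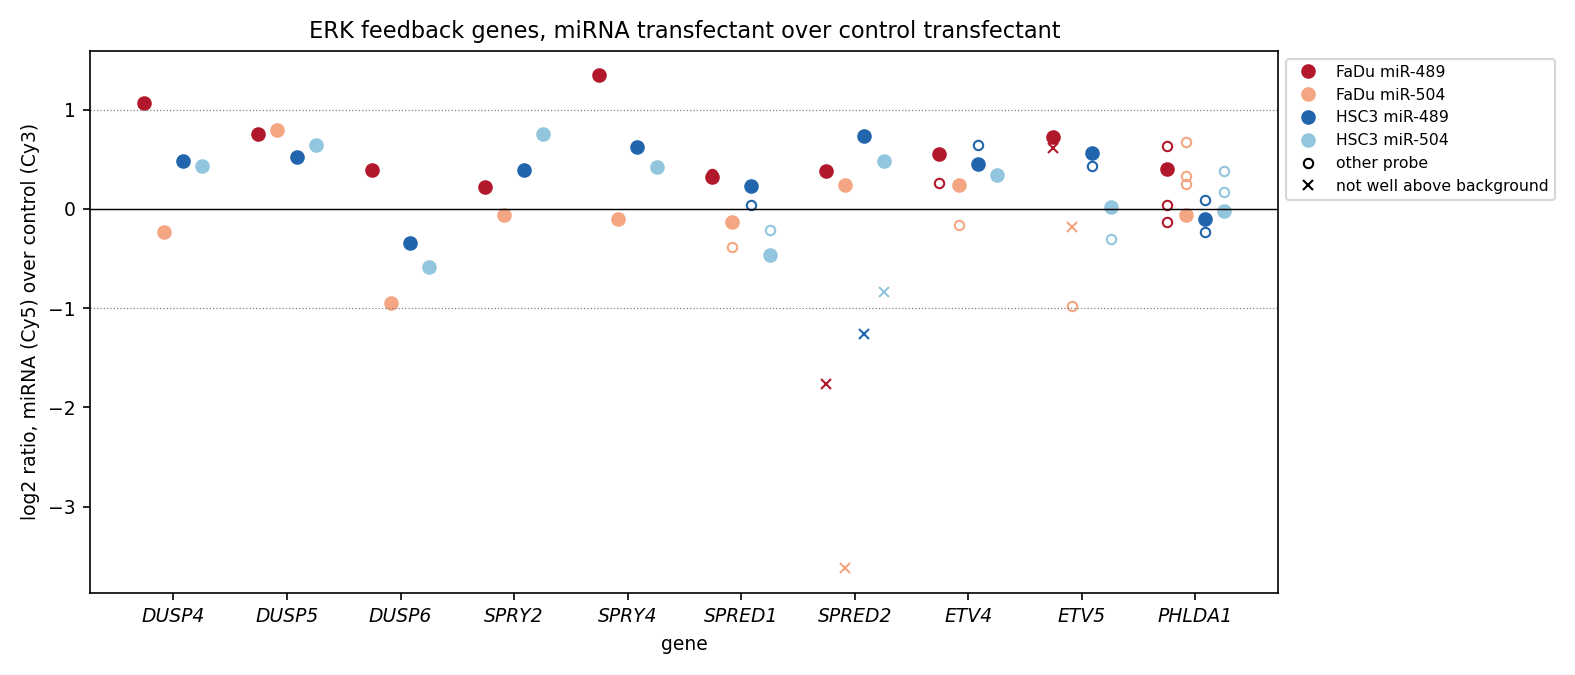
Log2 ratio of each miRNA transfectant over the control transfectant (vertical axis) for every probe of the 10 genes (horizontal axis) on the 4 arrays. Filled circles are the brightest probe of a gene, open circles its other probes and crosses values with a signal not well above background; dotted lines mark 2-fold. DUSP5 lies between 0.53 and 0.80 on all arrays, whereas DUSP6 is at 0.39 on the FaDu miR-489 array and between −0.95 and −0.34 on the others.

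Against the control transfectant on the same array, DUSP4 and SPRY4 were at least 2-fold higher after miR-489 in FaDu cells (2 of 10 genes, against 2.97% of all genes). All 10 lay above 0 on that array (10 of 10, against 48.8% of all genes), with a median of 0.47. On the FaDu miR-504 array 0 of 9 genes were at least 2-fold higher, against 2.49% of all genes. There 3 of 9 lay above 0 (DUSP5, SPRED2 and ETV4), against 49.5% of all genes, and the median was −0.066. The signs of SPRY2, SPRY4, SPRED2 and PHLDA1 on that array changed with the processing. In HSC3 cells 0 of 10 genes were at least 2-fold higher after either miRNA (2.84% of all genes after miR-489 and 2.09% after miR-504), and the medians were 0.46 and 0.38. There 8 of 10 lay above 0 after miR-489, against 48.6% of all genes, and 7 of 10 after miR-504, against 49.1%. None of the genes was 2-fold lower on any array (0), where 7.06% of all genes after miR-489 and 4.93% after miR-504 were in FaDu cells, and 6.89% and 4.3% in HSC3 cells. The medians of all genes lay between −0.021 and −0.0059. By their brightest probes the reference genes GAPDH and ACTB lay between 0.80 and 1.10 against the control over all arrays. The ratios also changed with intensity. On the FaDu miR-489 array their median was −0.27 in the dimmest Cy3 quartile of all measured spots and 0.13 in the brightest.

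The sequences upstream of DUSP6 and SPRY4 are shown because these genes had large differences between the miRNAs in FaDu cells. RefSeq windows were found for 6 of the 10 genes (DUSP6, SPRY2, SPRY4, SPRED1, SPRED2 and PHLDA1). The 250 bases before the annotated start of DUSP6 (GRCh38.p14, minus strand, chr12:89352502-89352751) and of SPRY4 (minus strand, chr5:142324248-142324497) are given in the direction of transcription. Capitals mark matches on either strand to CGGAA, a core of ETS-factor sites, and to TGACG, part of the cAMP-response element; TGACTCA, an AP-1 site, was also searched.
DUSP6: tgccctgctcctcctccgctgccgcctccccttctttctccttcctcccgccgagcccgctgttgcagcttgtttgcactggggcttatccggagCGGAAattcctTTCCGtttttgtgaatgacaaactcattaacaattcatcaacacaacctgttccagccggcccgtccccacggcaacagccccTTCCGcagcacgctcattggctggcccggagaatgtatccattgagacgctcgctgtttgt
SPRY4: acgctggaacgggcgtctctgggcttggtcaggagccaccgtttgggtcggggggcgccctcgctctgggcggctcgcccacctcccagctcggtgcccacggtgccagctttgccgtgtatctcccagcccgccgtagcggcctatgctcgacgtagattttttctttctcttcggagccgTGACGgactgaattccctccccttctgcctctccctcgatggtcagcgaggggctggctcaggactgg
The DUSP6 window held 3 matches to CGGAA or its complement TTCCG and 0 to TGACG, and the SPRY4 window held 0 and 1. Of 35116 such windows in the annotation, 30.3% held CGGAA, 21.2% TGACG and 4.20% TGACTCA, which had 0 matches in either gene. Of the other genes with a window, PHLDA1 had 2 matches to CGGAA, and SPRY2 had 2, with 1 to TGACG, in 1 of its windows. SPRED1 and SPRED2 had 0 to either. The matches describe these letters only, and no factor binding was measured.

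A limma model that took the lines as replicates was fitted to 20914 probes, of which 14 belonged to these genes. For miR-489 minus miR-504 it called 0 of the 14 probes at an adjusted p under 0.05 (adjusted p 0.157 to 0.960), where 0.306% of all probes were called higher and 0.76% lower. At an unadjusted p under 0.05 in limma there were 5 probes, against 18.5% of all probes. Those higher after miR-489 were DUSP6 (0.79 ± 0.27 (SE)), SPRY4 (0.82 ± 0.30) and the SPRED1 probes (0.57 ± 0.15 and 0.50 ± 0.15), and the PHLDA1 probe A_24_P943597 was lower (−0.54 ± 0.15). DUSP4 was at 0.68 ± 0.29, with an unadjusted p of 0.0682 in limma. With the cell line as a block the count of calls was also 0, with adjusted p of 0.0987 to 0.935 in limma, where 0.889% of all probes were called higher and 1.78% lower. In that fit 6 probes had an unadjusted p under 0.05 in limma, against 20.3% of all probes. With 1 array left out, 0 of the 14 and 0 of all probes were called. At an unadjusted p under 0.05 in limma there were then 1 of 14 without the FaDu miR-489 array (17.2% of all probes), 1 without the FaDu miR-504 array (9.87%), 8 without the HSC3 miR-489 array (17.7%) and 6 without the HSC3 miR-504 array (12.9%).

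Against the control, limma called 5 of the 14 member probes higher after miR-489 and 0 lower. Of all probes 30.5% were called higher and 26.5% lower, so the count called higher was near that of any probes. The 5 were those of SPRY4 (0.98 ± 0.21 (SE)), DUSP4 (0.77 ± 0.21), DUSP5 (0.64 ± 0.10), SPRED2 (0.56 ± 0.12) and the brighter ETV4 probe (0.50 ± 0.08), with limma adjusted p of 0.0043 to 0.0269. After miR-504 limma called 3 of the 14 higher, namely DUSP5 (0.72 ± 0.10), the dimmest PHLDA1 probe (0.53 ± 0.11) and the brighter ETV4 probe (0.29 ± 0.08). It called DUSP6 lower (−0.77 ± 0.19, limma adjusted p 0.0254). The brightest PHLDA1 probe, at −0.064 in FaDu and −0.024 in HSC3 cells after miR-504, was not called. Nor was the other ETV4 probe, at −0.17 and 0.35. After miR-504, 26.2% of all probes were called higher and 23.4% lower, so here too the count called higher was near that of any probes. The SPRY4 and DUSP4 calls were lost without the FaDu miR-489 array, which left 3 calls (DUSP5, ETV4 and SPRED2), and the DUSP6 call was lost without either miR-504 array. Without the FaDu miR-504 array 1 call was left for miR-504 (SPRY2), and without the HSC3 miR-504 array 2 (DUSP5 and PHLDA1). Where 1 array of a miRNA is left, it is assumed to vary like the others. A dye effect of a probe is part of each of these values against the control.

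The difference between the miRNAs has a part from each channel, and for several of these genes the control channel differed between the arrays of a line. In FaDu cells the Cy3 level of DUSP6, relative to the median of its array, was lower on the miR-489 array than on the miR-504 array by a log2 difference of −0.62, whereas Cy5 was 0.74 higher. For SPRY4 these values were −0.68 in Cy3 and 0.79 in Cy5. For DUSP4 in FaDu cells, in contrast, Cy5 was 1.70 higher after miR-489 and Cy3 was also higher, by 0.38. In HSC3 cells DUSP4 was about equally higher in both channels of the miR-489 array, by 1.02 in Cy5 and 1.01 in Cy3, beside its difference of ratios of 0.050.

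Control levels at least 1.5-fold apart, a limit chosen after the values were seen, were found for 3 of 9 genes in FaDu cells (DUSP6, SPRY4 and PHLDA1, each lower on the miR-489 array), against 4.06% of 15725 genes in either direction, 1.96% lower and 2.1% higher. In HSC3 cells there were 4 of 9, against 8.01% of all genes, with DUSP4 and PHLDA1 higher (2 of 9, against 4.83%) and DUSP5 and SPRY2 lower on the miR-489 array (2 of 9, against 3.18%). In the brightest PHLDA1 probe the Cy3 difference was −1.11 in FaDu and 0.63 in HSC3 cells. For PTPN11 it was −0.10 and 0.14, so that the difference in PTPN11 lay in Cy5 (−2.04 and −2.08).

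By Cy5 alone, a comparison added after the values were seen, DUSP4 and ETV5 were at least 2-fold higher after miR-489 in FaDu cells (2 of 10 genes, against 1.59% of all genes). In HSC3 cells DUSP4 was higher (1 of 10, against 2.1%) and SPRY2 was lower by −1.08 (1 of 10, against 3.1%), with a median of 0.037, against 0.047 for all genes. Levels 2-fold lower by Cy5 alone were found for 0 of 10 genes in FaDu cells by the brightest probe, against 2.33%. The dimmer PHLDA1 probes A_24_P915692 and A_24_P943597 were past 2-fold there (−1.07 and −1.38). In limma, Cy5 alone gave 0 calls among the 14 probes, and 0 at an unadjusted p under 0.05. Of all 20914 probes 0 were called, and 1.83% were at an unadjusted p under 0.05 in limma. That fit had no term for the line, so level differences between the lines entered its error. PTPN11, at −2.04 in FaDu and −2.08 in HSC3 cells, was not called either. The fit therefore cannot decide whether Cy5 of these genes differed between the miRNAs. By size, the differences in DUSP6 and SPRY4 of FaDu cells were past 2-fold in the ratio and not in Cy5 alone. That in DUSP4 was past 2-fold in both. The part of the control RNA in the differences between the miRNAs was not tested.

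**Figure D3:**
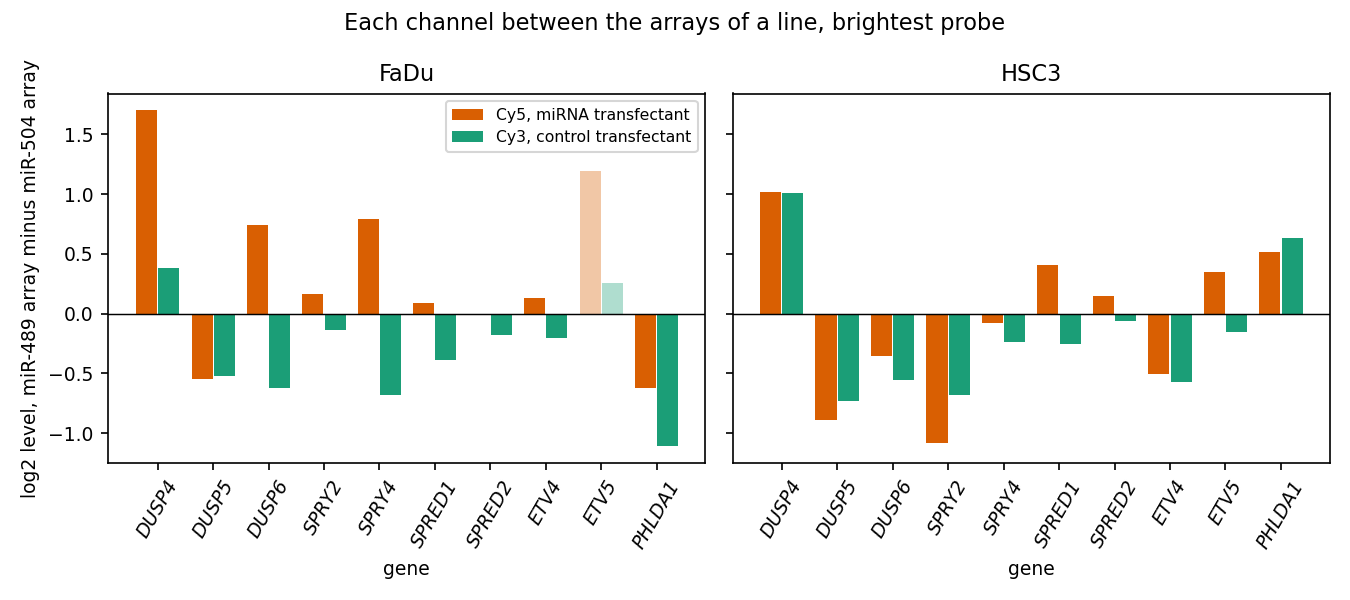
Log2 level on the miR-489 array minus that on the miR-504 array (vertical axis) in Cy5, the miRNA transfectant, and in Cy3, the control transfectant, for the brightest probe of each gene (horizontal axis) in FaDu (left) and HSC3 cells (right). Each channel was centred on its array's median, and pale bars have a signal not well above background. In FaDu cells DUSP6 and SPRY4 have bars of opposite sign (0.74 and −0.62, 0.79 and −0.68), and in HSC3 cells both DUSP4 bars are near 1 (1.02 and 1.01).

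In the control transfectants, 5 of 9 genes were at least 2-fold lower in FaDu than in HSC3 cells, against 10.2% of all genes, and 0 were 2-fold higher, against 11.6%. DUSP4 was 7.08-fold lower, with levels relative to the array median of 0.47 and 0.085 in FaDu and 3.61 and 2.59 in HSC3 cells. SPRY4 was 5.35-fold, PHLDA1 4.75-fold, DUSP6 3.02-fold and SPRY2 2.64-fold lower. Both FaDu arrays lay below both HSC3 arrays for 8 of 9 genes, against 33.4% of all genes, and above them for 0, against 43.4%. The exception was SPRED1, whose lines overlapped (−1.40 and −1.02 in FaDu, −1.59 and −1.34 in HSC3 cells). The median difference was −1.40 on the log2 scale, against 0.083 for all genes. For ETV4 this rested on the brighter probe, and by the other probe the lines overlapped. The smallest gap between an array of one line and an array of the other was 2.13 for DUSP4, 1.96 for SPRY4, 1.38 for PHLDA1, 1.01 for DUSP6, 0.99 for SPRY2 and 0.42 for SPRED2, larger in each of these genes than the gap between the arrays of a line. For DUSP5 and ETV4 it was 0.36 each, smaller than the gap between the arrays of a line, which reached 0.73 and 0.57. No test was made, since control RNA may have been shared between the arrays of a line.

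**Figure D4:**
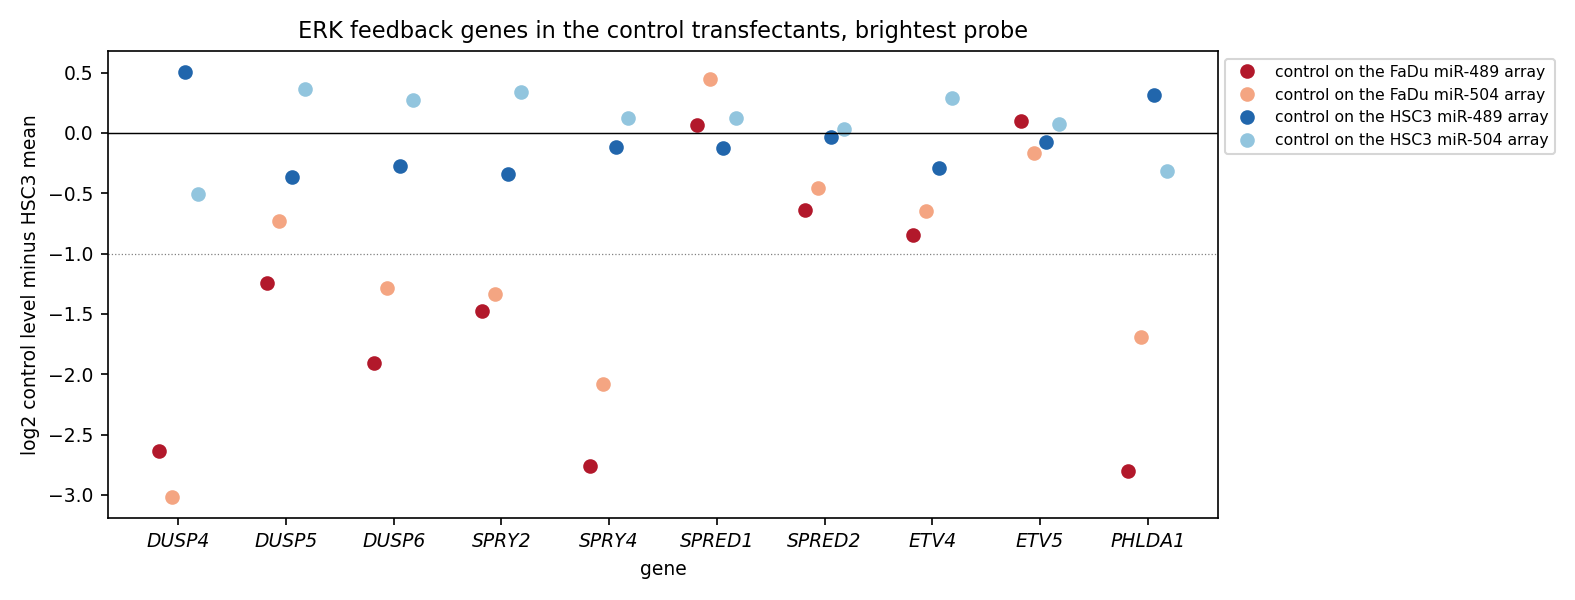
Log2 Cy3 level of the control transfectant on each array, relative to the array median and then to the mean of the HSC3 arrays (vertical axis), for the brightest probe of each gene (horizontal axis). The dotted line marks 2-fold below the HSC3 mean, and ETV5, not well above background on the FaDu miR-504 array, was not counted. FaDu controls lie below it for DUSP4, DUSP6, SPRY2, SPRY4 and PHLDA1, with mean differences of −2.82, −1.60, −1.40, −2.42 and −2.25.

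Other genes of the pathway were taken from lists. Of 15 paralogs of the 10 genes, such as DUSP1 and SPRY1, 11 were measured in FaDu and 10 in HSC3 cells. None was 2-fold apart between the miRNAs (0 and 0), and the medians were 0.0017 and −0.10. Of 15 further genes that ERK is known to induce, 15 and 14 were measured, with medians of 0.11 and −0.07. EGR1, an immediate early transcription factor, was 2-fold lower after miR-489 in FaDu cells (−1.39), and LIF, a cytokine, in HSC3 cells (−1.08), both named after their values were seen. EGR1 controls also differed between the HSC3 arrays, by −2.94 in Cy3. Of 17 genes of the cascade from receptor to ERK, 14 were measured in each line, and PTPN11 was the 1 gene that was 2-fold apart, lower in both. In limma, 0 of 14 paralog probes and 0 of 21 probes of the other induced genes were called between the miRNAs, with 5 and 6 at an unadjusted p under 0.05 (18.5% of all probes), and of 23 cascade probes 2 were called, both of PTPN11. A probe of DUSP3, a phosphatase of the same family, was at 0.62 ± 0.12 (SE) with a limma adjusted p of 0.0898, and was called higher under 4 alternatives (limma adjusted p 0.0178 to 0.0497: bright probes, no background subtraction, normexp, and normexp with loess). Against the control DUSP3 was at −0.020 in FaDu and −0.14 in HSC3 cells after miR-489, and at −0.75 and −0.66 after miR-504. By Cy5 alone its difference was 0.49 in FaDu and −0.22 in HSC3 cells, with Cy3 at −0.27 and −0.70. DUSP3 was named after its values were seen. The reference genes GAPDH and ACTB had differences of 0.17 to 0.19 in FaDu and 0.063 to 0.080 in HSC3 cells.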

How the data were processed

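RNA of 4 miRNA transfectants (Cy5) and their control transfectants (Cy3) was read on 4 two-colour arrays, all on 1 slide and in 1 scan, so that no slide or scan effect could be fitted. Lines, miRNAs and dyes were taken from the labels. The genes, lists and settings were chosen with earlier results of these data known.

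The authors deposited spot and background intensity values, not normalised, from Feature Extraction 9.5.3.1. Also deposited was a log10 ratio per spot, dye-normalised by that software, and a deposited value table was identical to it (largest difference 0). The paper, by contrast, states that DNASIS and a ScanArray scanner were used. From the deposited intensities, log2 ratios of background-subtracted medians were calculated and centred on the median of probes well above background in both channels, as a global normalisation; the medians removed were 0.58 (miR-489) and 0.65 (miR-504) in FaDu cells and 0.58 and 0.45 in HSC3 cells. Outlier spots (118 to 137 per array) were left out. The probe with the highest mean log2 Cy3 stood for its gene. A ratio was counted, as higher or lower, only with both channels well above background on its array. A difference needed this on both arrays of the line. For Cy3 or Cy5 alone, that channel had to be well above background on every array. Every member was named with every probe; of other genes, PTPN11 and those of the pathway lists 2-fold apart in both lines or called by limma. EGR1, LIF and DUSP3 fall outside this rule.

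limma was fitted to 20914 probes with Cy3 well above background on all arrays (2 residual degrees of freedom, prior 3.20, prior SD 0.13), with Benjamini-Hochberg adjustment at 0.05. Tested on simulated data of 20914 probes for the contrast between the miRNAs, it recovered 94 of 100 changes of 1 and 100 of 100 of 2 on the log2 scale, with 22 false calls. Recovery of a difference present in 1 line only was not tested. Recovery for probes with standard errors as large as those of DUSP4, DUSP6 and SPRY4 was not tested separately. Arrays were paired by cell line; deviations of the arrays of a line from the means of their miRNAs correlated with r = 0.14 across probes, which are not independent. Alternatives were other background corrections (normexp with an offset of 50, or none), the mean spot intensity, loess (span 0.3), total signal, the deposited ratios, other filters and probe choices, thresholds of 1.5-fold and 4-fold, a block for the line and each array left out in turn; Cy5 or Cy3 alone was added after the values were seen. The array's gene names matched RefSeq (GRCh38.p14) by accession for 10 of 10 genes. No 3′ UTR was analysed here. The software was Python 3.11.15 with matplotlib 3.10.9, numpy 2.4.6 and pandas 2.3.3, and limma 3.58.1 under R 4.3.3 with version 1.17.8 of the data.table package.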

Additional observations from a re-analysis of the deposited data

Results flagged for a closer look

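Some ratios to the control had opposite signs in the lines, and those of 3 genes were flagged. DUSP4 after miR-504 was at −0.24 in FaDu and 0.43 in HSC3 cells. DUSP6 after miR-489 was at 0.39 in FaDu and −0.34 in HSC3 cells. PHLDA1 after miR-489, by its brightest probe, was at 0.40 in FaDu and −0.098 in HSC3 cells, the latter near 0. SPRY2 and SPRY4 after miR-504, not flagged, also had opposite signs. SPRY2 was at −0.066 in FaDu and 0.75 in HSC3 cells, and SPRY4 at −0.10 and 0.42. Their FaDu signs changed with the processing. The difference between the lines was not tested for any of them, since each line had 1 array per miRNA.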

How the results depend on the processing

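The medians of the 10 genes against the control depended on the scaling. For FaDu miR-489 the median of 0.47 was 0.63 with loess, 0.27 with total signal, and 0.72 with both the deposited log10 ratios and the deposited value table. For FaDu miR-504 the median of −0.066 was 0.050 with loess, 0.024 with normexp and loess, −0.24 with total signal and 0.14 with the deposited ratios and table. For HSC3 miR-489 the median of 0.46 was 0.34 with normexp, 0.34 without background subtraction, 0.30 with normexp and loess, 0.29 with total signal and 0.19 over bright probes, and for HSC3 miR-504 the median of 0.38 was 0.26 with normexp and loess, 0.19 with total signal and 0.20 over bright probes. The median difference between the miRNAs was 0.88 in FaDu and −0.012 in HSC3 cells over bright probes, which left 4 genes, and 0.15 in FaDu cells by Cy5 alone. In FaDu cells the count of 3 genes 2-fold higher was 2 to 4 under the other alternatives and 0 at 4-fold. In HSC3 cells the counts of 0 were 1 higher and 1 lower by Cy5 alone, and 1 higher at 1.5-fold. The limma count of 0 member probes between the miRNAs was 0 under every alternative, among them the replicate block of the cell line (0 calls, with 6 at an unadjusted p under 0.05) and leaving out each array (0 to 0, with 1 to 8 of 14 at an unadjusted p under 0.05, where 9.87% to 17.7% of all probes were and 0 of all probes were called). Over all probes that contrast had 64 higher and 159 lower calls, 186 and 372 with the block, 284 and 379 with normexp, 295 and 487 with normexp and loess, and 349 and 356 over bright probes. It had 0 without the filter on dim probes. By Cy5 alone, in a fit without a term for the line, it had 0, with 382 at an unadjusted p under 0.05 in limma. Against the control, the 5 calls for miR-489 were 8 with loess, normexp and loess, the deposited ratios and the table, 3 with total signal and without the filter, 2 over bright probes, and 3 to 6 with an array left out. The 4 calls for miR-504 were 2 over bright probes, 1 without the filter, and 1 to 6 with an array left out. With total signal these were 1 higher and 3 lower in place of 3 and 1. No value called or past 2-fold in the reported setting changed sign; the dimmer SPRED1 probe, at 0.20 against the miR-489 control, was called lower (−0.26) without background subtraction. The causes were not tested. Ratios of dim spots, below a Cy3 intensity of 100, carry the larger spot error given above, which limits SPRY2 and SPRY4 in FaDu cells, SPRED2 and ETV5.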
